A study of Mus musculus with 14 samples.

Results

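The 10 genes described here encode interleukin-1 (IL-1) family ligands and the inflammasome, the protein complex that releases them. They were chosen by name, with earlier results of these data known. They are the ligands Il1b, Il1a, Il18 and Il33, the sensors Nlrp3 and Aim2, the adaptor Pycard, the caspases Casp1 and Casp4, and the pore former Gsdmd. All 10 were among the 55487 genes of the count tables. RNA was sequenced from 14 libraries of mouse bone marrow cells. LSK cells (Lin-Sca1+c-kit+, the fraction that holds the stem cells) and LK cells (Lin-c-kit+, the myeloid progenitors) were sorted from recipients of Mx1Cre; Jak2VF/+ marrow, in which an interferon-inducible Cre had switched on 1 Jak2V617F allele in the transplanted blood cells while the recipients' stroma stayed wild type. The recipients were given PBS or IL-1β at 0.5 μg per dose, 3 doses a week, for 16 weeks, so that the control mice carried the mutation and the transplant too. Each sorted population had 3 PBS and 2 IL-1β libraries. Mesenchymal stromal cells (MSC) were grown for 21 days from C57BL/6 marrow without the mutation and treated for 72 h with IL-1β (5 ng/ml) or PBS, with 2 libraries per treatment. The ages of the animals and whether a library was 1 animal or a pool are not in the labels, so the p-values measure the spread between these libraries.

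IL-1β and IL-1α are cytokines that act through the same receptor, IL-18 drives interferon-γ production in lymphocytes, and IL-33 is an alarmin held in the nucleus of stromal and barrier cells. IL-1β and IL-18 are made as inactive precursors. A sensor such as NLRP3, or AIM2 for cytosolic DNA, assembles with the adaptor ASC (Pycard) and caspase-1, which cleaves the precursors and gasdermin D (Gsdmd), and the gasdermin fragments form pores through which the cytokines leave the cell. Mouse caspase-11 (Casp4) senses cytosolic lipopolysaccharide and also cleaves gasdermin D. Transcription of Il1b and Nlrp3 is known to need a priming signal through NF-κB in macrophages, whereas the adaptor and caspase-1 are usually present beforehand. These tables hold RNA counts only, and neither cleavage nor secretion was measured.

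Library totals were 12172400 to 18544346 counted read pairs in the PBS libraries of sorted cells, 4393233 to 8641124 in their IL-1β libraries, and 5834909 to 30871055 in MSC cultures. In the sorted cells all IL-1β libraries had lower totals than the PBS libraries, and depth cannot be told apart from treatment there. Levels are given as CPM, the usual depth-scaled counts, with TMM factors over all 14 libraries, and, between genes, as FPKM, which is CPM per kb of exon. Each test used factors from its own libraries. Against those, the common scale shifts the ratio of CPM by -0.08 (log2) between treatments in LK cells, by 0.04 in MSC cultures, and by -0.12 between LSK and LK cells with PBS. The stem cell list of 8 genes had a summed level of 1355 to 1766 CPM in LSK and 460 to 622 CPM in LK cells under PBS. The MSC cultures held a high level of macrophage markers: 12 listed genes summed to 16247 and 20706 CPM with PBS and to 42206 and 43296 CPM with IL-1β, against 2734 and 5433 CPM, then 4547 and 4643 CPM, for 12 mesenchymal genes. Of the 12 mesenchymal genes, 11 were detected in the PBS cultures, such as Col1a1 at 492 and 963 CPM and Prrx1 at 63.3 and 96.2 CPM. The exception was Lepr, a defining marker of marrow stromal cells, at 0 counts in both PBS cultures. The cultures are therefore called by their label, MSC, with no statement on which of their cells expressed a gene. In such bulk samples, fewer cells of a type and less RNA per cell cannot be told apart.

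Gsdmd had the highest FPKM of the 10 genes in each of the 6 groups, from 14.1 ± 1.72 (SD, n = 3) in LK cells with PBS to 58.5 ± 1.41 (SD, n = 2) in MSC cultures with IL-1β. Pycard, Casp1 and Aim2 followed in sorted cells, and the ranges of Casp1 and Pycard and of Pycard and Aim2 overlapped in LSK cells with PBS. Casp4 came next, at 3.37 ± 2.34 FPKM in LSK and 1.64 ± 0.631 FPKM in LK cells with PBS (SD, n = 3). Nlrp3 stayed below 0.5 FPKM in every library of sorted cells. Its mean was 5.27 ± 1.28 FPKM in MSC cultures with PBS (SD, n = 2). Il33 had at most 1 count in any sorted-cell library and Il1a at most 3, which is at the floor of 3 counts set for each library. The sorted cells and the cultures differ in genotype, culture and table, so these levels are a description.

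**Figure D1:**
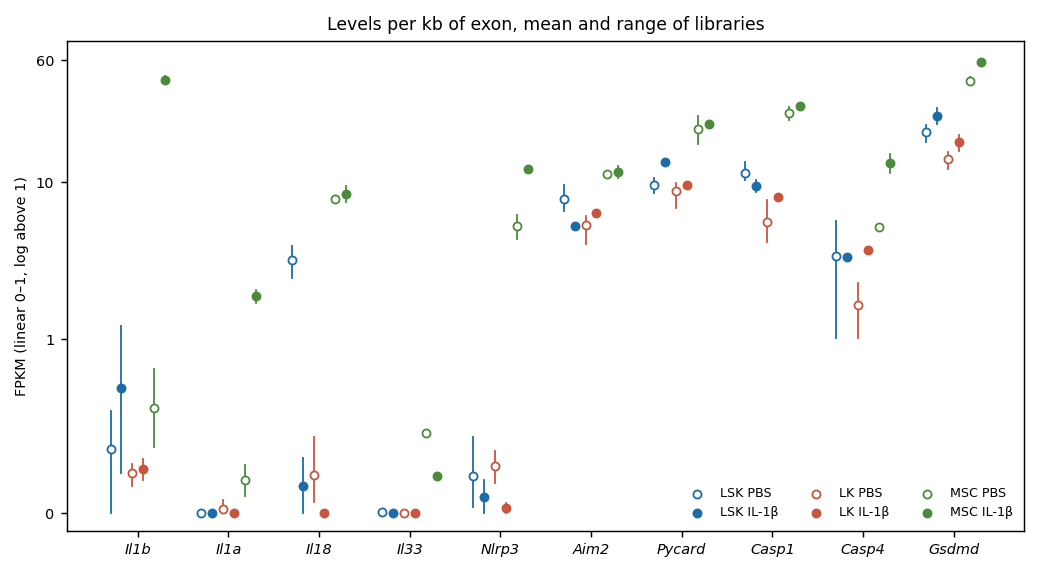
Levels of the 10 genes in FPKM (linear from 0 to 1, logarithmic above 1), with a point for the group mean and a bar from the lowest to the highest library, open for PBS and filled for IL-1β. Gsdmd, Casp1, Pycard, Aim2 and Casp4 lie above 1 FPKM in all 6 groups, and Il1b reaches 45.2 FPKM with IL-1β in MSC cultures alone.

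To ask whether IL-1β changes expression of its own gene and of the inflammasome in stromal cultures, the 2 IL-1β cultures were compared with the 2 PBS cultures. Of the 10 genes, 4 rose and none fell, where a call needed an adjusted p under 0.05 in edgeR's quasi-likelihood test and a log2 fold change beyond 0.5 either way. Across all 13239 genes tested, 7.14% were called higher (945) and 4.31% lower (570), a split that was 817 and 831 with upper-quartile factors, under which the 4 calls held. The 4 genes were Il1b, Il1a, Nlrp3 and Casp4. The 200 bases before the start site of each are shown because these 4 genes moved together (RefSeq, GRCm38.p6, read 5′ to 3′ on the gene's strand). Capitals mark TATAAA, the TATA box, and the NF-κB consensus, which is GGGA, any 4 bases, then CC.
Il1b (chr2:129371140-129371339, minus strand): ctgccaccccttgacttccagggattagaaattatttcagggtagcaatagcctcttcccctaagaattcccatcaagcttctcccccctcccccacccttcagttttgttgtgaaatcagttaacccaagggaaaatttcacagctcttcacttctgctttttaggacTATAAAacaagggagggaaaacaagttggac
Il1a (chr2:129309973-129310172, minus strand): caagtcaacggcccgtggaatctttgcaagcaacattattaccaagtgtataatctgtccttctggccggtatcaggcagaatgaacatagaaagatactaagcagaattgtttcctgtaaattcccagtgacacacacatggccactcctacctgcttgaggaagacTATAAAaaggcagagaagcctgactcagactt
Nlrp3 (chr11:59541369-59541568, plus strand): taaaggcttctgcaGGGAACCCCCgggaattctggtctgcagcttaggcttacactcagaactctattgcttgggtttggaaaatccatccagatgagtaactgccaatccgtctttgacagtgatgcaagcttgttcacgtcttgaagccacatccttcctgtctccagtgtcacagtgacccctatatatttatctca
Casp4 (chr9:5308649-5308848, plus strand): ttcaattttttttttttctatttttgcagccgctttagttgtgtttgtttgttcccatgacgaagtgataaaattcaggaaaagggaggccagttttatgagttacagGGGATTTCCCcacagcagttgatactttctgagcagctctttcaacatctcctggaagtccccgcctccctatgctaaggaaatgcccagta
The windows of Il1b and Il1a hold TATAAA at -31 and -32 from the start site and no NF-κB letters. The windows of Nlrp3 and Casp4 hold the NF-κB letters at -186 and -92 and no TATAAA. The Casp4 match is a palindrome and was found on both strands at the same bases. Nlrp3 and Casp4 each have 2 start sites in RefSeq and the first is shown. The motifs were searched on both strands of windows from 250 bases before to 50 after each start site. Of 32851 such windows, 20.7% held the NF-κB letters and 13.6% held TATAAA, so a match describes the sequence and is not a site. The letters of PU.1 (GAGGAA), C/EBP (TTGC, any 2 bases, AA) and the interferon-stimulated response element were searched too, and of the 4 windows printed Il1a held GAGGAA at -41. The window of the second Nlrp3 start site, not printed, held no NF-κB letters, and GAGGAA on either strand at -220, -129 and -36. The NF-κB letters at Nlrp3 thus depend on the start site taken. The second Casp4 window held them at -103. RefSeq windows were at hand for 9 of the 10 genes, all but Gsdmd.

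Il1b (ENSMUSG00000027398, chr2:129364570-129371139, minus strand, GRCm38) had 8 counts in each PBS culture, and 1971 and 860 counts in the IL-1β cultures. In CPM it was at 1.58 and 0.73 with PBS and at 81.4 and 90.8 with IL-1β. Both IL-1β cultures were far above both PBS cultures. The log2 fold change was 6.36 ± 0.28 (SE), an 82.4-fold rise (edgeR, adjusted p = 0.00062), which placed Il1b at rank 21 of 13239 genes ordered by log2 fold change. Per kb of exon it went from 0.605 ± 0.314 to 45.2 ± 3.47 FPKM (SD, n = 2 each), from eighth to second place among the 10 genes. Il1bos, an antisense transcript that overlaps Il1b on the opposite strand, had 0 counts in all 4 cultures, so the counted reads lie on the strand of Il1b.

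Il1a lies on the same strand of the same chromosome (ENSMUSG00000027399, chr2:129299610-129309972). It had 1 and 6 counts in the PBS cultures and 99 and 32 in the IL-1β cultures. In CPM these were 0.197 and 0.547 against 4.09 and 3.38, without overlap. The log2 fold change was 3.09 ± 0.54 (SE) at an adjusted p of 0.0229 in edgeR. Even so, Il1a stayed at 1.89 ± 0.255 FPKM with IL-1β (SD, n = 2), and 9.14% of its 50-base words also occur in the overlapping opposite-strand gene Gm14023, which strand-specific counting keeps apart.

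Of the sensors, Nlrp3 (ENSMUSG00000032691, chr11:59541568-59566956, plus strand) rose and Aim2 did not pass the test. Nlrp3 was at 25 and 17.7 CPM with PBS and at 50.9 and 48.5 CPM with IL-1β. The groups did not overlap, and the log2 fold change was 1.21 ± 0.19 (SE; edgeR, adjusted p = 0.018). Aim2 was at 39.4 and 39.8 CPM with PBS and at 44.3 and 37.5 CPM with IL-1β, with a log2 fold change of 0.01 and a 95% interval from -0.28 to 0.31.

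Casp4 (ENSMUSG00000033538, chr9:5308828-5336783, plus strand) was the caspase that rose. Its level was 19.9 and 18.5 CPM with PBS and 56 and 42.7 CPM with IL-1β. The log2 fold change was 1.33 ± 0.16 (SE; edgeR, adjusted p = 0.00874). Casp1, its neighbour on chromosome 9, was at 95 and 77.7 CPM against 97.6 and 96.2 CPM. Its log2 fold change of 0.13 had an interval from -0.20 to 0.47. The adaptor Pycard was at 66.4 and 100 CPM with PBS and at 90.1 and 88.8 CPM with IL-1β (log2 fold change 0.05, interval -0.41 to 0.52), and 11.7% of its 50-base words occur in opposite-strand Gm45205 or in Mvp. Gsdmd was at 99 and 111 CPM against 137 and 141 CPM, higher without overlap but at an adjusted p of 0.0873 in edgeR (log2 fold change 0.36 ± 0.11, SE). Pycard and Aim2 thus overlapped between treatments. Neither Gsdmd nor Casp1 was called, and the adjusted p of Casp1 was 0.555 in edgeR. Both lay higher without overlap, Casp1 by a gap from 95 to 96.2 CPM only. Of all genes tested, 33.3% lay higher with IL-1β in this way, and 59.6% lay apart in either direction.

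The remaining ligands were not called. Il18 was at 8.28 and 7.85 CPM with PBS and at 9.75 and 7.71 CPM with IL-1β, and the groups overlapped (log2 fold change 0.09, interval -0.45 to 0.63). Il33 had 7 and 14 counts with PBS and 15 and 6 with IL-1β. On the CPM scale it was lower with IL-1β without overlap, at 0.62 and 0.633 against 1.38 and 1.28 (log2 fold change -1.11, edgeR adjusted p = 0.235).

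The macrophage marker list moved with these genes. Of its 12 genes, 8 were called higher and none lower. Among the 8 was Lyz2 (lysozyme), at 5819 to 8433 CPM with PBS and at 24888 to 25041 CPM with IL-1β. Lyz2 had the highest level of the 12 genes and so weighs most in their sum. Cd68 lay lower with IL-1β, at 1038 and 1274 CPM against 1320 and 1797 CPM, with no call. Of 11 mesenchymal markers tested, none was called in either direction. The part of the macrophage markers' rise in the rise of Il1b, Il1a, Nlrp3 and Casp4 was not tested. The call of Il1b held without either IL-1β culture, whereas Il1a, Nlrp3 and Casp4 were lost when either one was left out. Without IL-1β replicate 1, Il1a was at 3.03 (adjusted p = 0.376), Nlrp3 at 1.20 (0.242) and Casp4 at 1.16 (0.168; log2 fold change, edgeR). Without IL-1β replicate 2 they were at 3.23 (adjusted p = 0.268), 1.19 (0.183) and 1.47 (0.067; log2 fold change, edgeR). In those fits the lone IL-1β culture is assumed to vary like the PBS cultures.

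**Figure D2:**
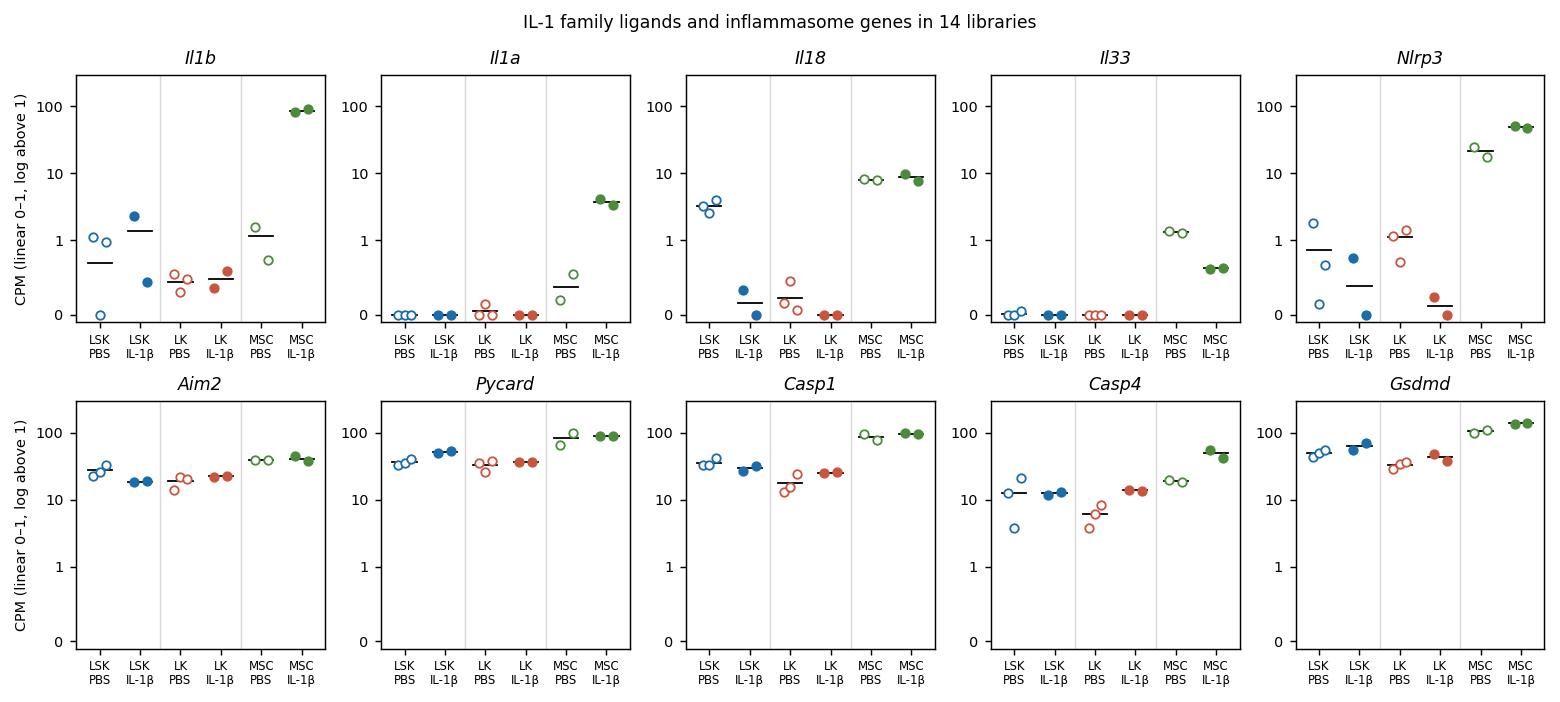
CPM of each gene in each of the 14 libraries (linear from 0 to 1, logarithmic above 1), open for PBS and filled for IL-1β, with a line at the group mean. Both IL-1β cultures lie above both PBS cultures for Il1b, Il1a, Nlrp3, Casp4 and Gsdmd, and for Casp1 by a gap from 95 to 96.2 CPM. Of all genes tested, 33.3% lay higher in this way. Il18 is at 2.54 to 4.06 CPM in the 3 LSK PBS libraries and at 0 and 0.328 CPM in the 2 LSK IL-1β libraries.

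The other genes of the pathway also moved mostly upward in the cultures. Their lists were chosen by function, but with earlier results of these data known. The shares of these lists beside all genes, here and below, are therefore a description. Of 27 other inflammasome sensors and regulators tested, 15 rose and none fell, beside 7.14% of all genes called higher, with a median log2 fold change of 0.78 beside 0.00 over all genes. The largest rises were in Gbp5, a guanylate-binding protein (4.34 ± 0.31), Zbp1, a sensor of Z-form nucleic acids (3.49 ± 0.15), Mefv, which encodes pyrin (3.42 ± 0.37), and Gm12250, the GTPase IRGB10 (3.29 ± 0.26; log2 fold change ± SE). Nlrc4 and Naip2, partners in the sensing of bacterial secretion systems, rose by 0.78 and 0.95, and P2rx7, the ATP-gated channel upstream of NLRP3, by 0.80. Pstpip1, a partner of pyrin, rose by 0.65. Both binding proteins tested rose: Il18bp, which neutralizes IL-18, from 4.29 and 7.1 CPM to a range of 27.6 to 27.7 CPM (log2 fold change 2.30 ± 0.26, SE), and Il1rn, the IL-1 receptor antagonist, from 40 and 53.4 CPM to 76.9 and 82.4 CPM (0.72 ± 0.15). None of the 5 receptors tested was called in either direction. Among 6 other gasdermins and release factors, Ninj1, which ruptures the membrane of dying cells, rose (0.82 ± 0.11). Of 16 priming and signalling genes, 7 rose and none fell, with Tlr2 (2.70 ± 0.46), Nfkbiz (1.50 ± 0.18), Irak3 (1.40 ± 0.18) and Nfkbia (1.03 ± 0.16) the largest. The 4 genes of most change in the sensor list are known as interferon-responsive or myeloid genes.

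**Figure D3:**
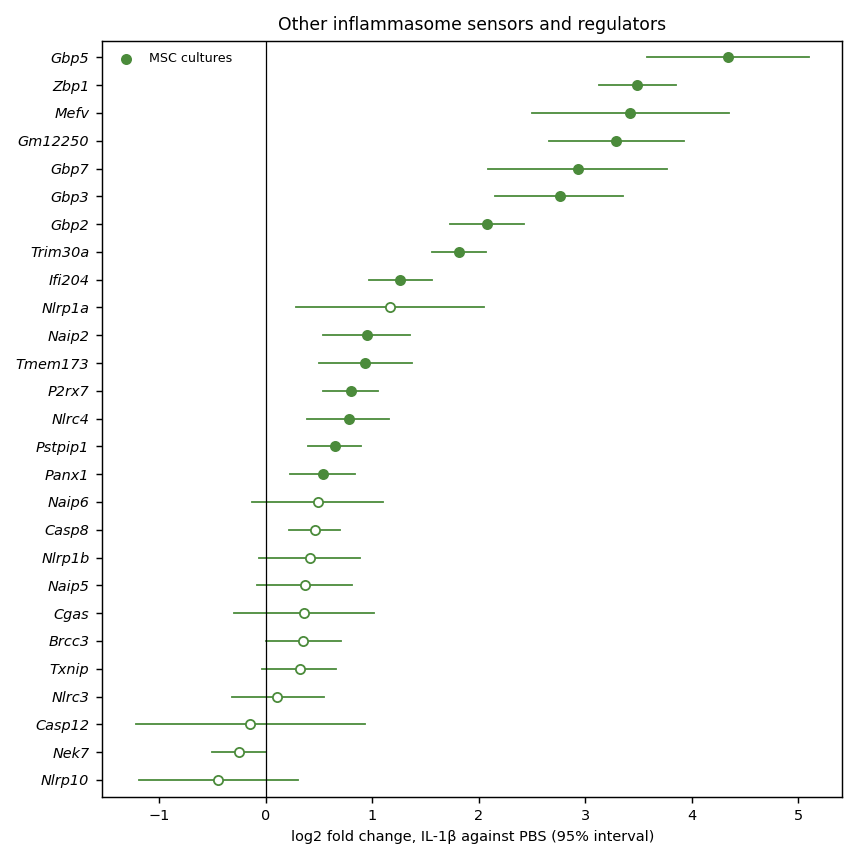
Log2 fold change of 27 other inflammasome sensors and regulators in MSC cultures with IL-1β against PBS, with 95% intervals from edgeR, filled where called. The 15 called genes all lie above 0 and run from 0.54 (Panx1) to 4.34 (Gbp5).

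In LSK cells, none of the 7 genes with enough counts to be tested was called by edgeR's quasi-likelihood test, where 0.632% of 13132 genes were called. At an unadjusted p under 0.05 there was 1, Il18, among 2431 of all genes. DESeq2 called 1 gene, Il18, and limma-voom called 0. Il1a, Il33 and Nlrp3 had too few counts for the test.

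Il18 (ENSMUSG00000039217, chr9:50554827-50581840, plus strand) had 49, 36 and 79 counts with PBS, against 3 and 0 with IL-1β. This is 3.24, 2.54 and 4.06 CPM against 0.328 and 0 CPM, with no overlap. At the mean PBS level the IL-1β libraries would have held 30 and 14.8 counts. From the summed counts of 164 and 3, the level was 15.3-fold lower with IL-1β, with a 95% interval of 5.15 to 75 that covers counting error only. The log2 fold change was -3.99 ± 1.18 (SE), with an adjusted p of 0.14 in edgeR and of 0.0259 in DESeq2. Over all alternatives the adjusted p ran from 0.0259 to 0.592. Other progenitor genes moved in the same direction. Of the 6 listed lymphoid genes, 2 could be tested and Dntt, which marks lymphoid-primed progenitors, was called lower. It went from 89.4 to 321 CPM with PBS down to 2.74 and 5.98 CPM, nearly all of the list's sum of 90 to 323 CPM against 3.18 and 7.09 CPM. Cd3e, Cd79a, Ebf1 and Rag1 were at or near 0 with both treatments. Of 8 stem cell genes, Flt3 and Hlf were called lower, and the list went from 1355 to 1766 CPM down to 778 and 910 CPM. Flt3 is also in the monocyte and dendritic cell list, whose sum of 342 to 448 CPM against 194 and 282 CPM follows it (217 to 246 CPM against 26.4 and 59 CPM). That list had a median log2 fold change of 0.40 over 7 genes, and its members diverged. Ly6c2, Ccr2, F13a1 and Cd14 had higher means with IL-1β and no call. Csf1r (25.9 to 48.5 CPM against 13.3 and 14.1 CPM) and Itgax (2.73 to 7.99 CPM against 0.665 and 1.53 CPM) lay lower, also with no call. The part of these lists in the Il18 values was not tested.

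Il1b in LSK cells had 17, 0 and 19 counts with PBS and 21 and 2 with IL-1β. The groups overlapped, at 1.12, 0 and 0.978 CPM against 2.3 and 0.443 CPM, and the log2 fold change of 0.99 had an interval from -2.21 to 4.20. The PBS library without an Il1b count, replicate 2, also had the fewest Nlrp3 and Casp4 counts of the 3 and the most of the antisense Il1bos, 76 counts against 11 and 7. Its lymphoid sum was 323 CPM against 106 and 90 CPM. Without this library none of the tested genes was called either, and the log2 fold change of Casp4 was -0.44 in place of -0.03.

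None of the inflammasome genes of LSK cells passed the threshold. Nlrp3 had 27, 2 and 13 counts with PBS and 7 and 0 with IL-1β, too few for the test. Aim2 was at 23, 25.7 and 33.4 CPM against 18.3 and 18.8 CPM (log2 fold change -0.57 ± 0.32, SE; adjusted p = 0.36 in edgeR). Pycard was at 32.7, 35.6 and 40.5 CPM against 49.7 and 53.2 CPM (0.50 ± 0.25, SE; adjusted p = 0.314 in edgeR). Aim2 thus lay lower and Pycard higher without overlap. On this scale Casp1 also lay lower, by a gap from 32.4 to 32.5 CPM, and Gsdmd higher. With Il18, 2 of the 7 genes tested lay higher and 3 lower without overlap. Such a gap was seen in one direction or the other for 39.5% of all genes tested. Casp1 was at 32.5, 33.1 and 42.2 CPM against 27 and 32.4 CPM, with an interval from -0.91 to 0.35 on the log2 scale. Gsdmd was at 42.8, 50.5 and 55.1 CPM against 55.8 and 70.5 CPM, with an interval from -0.23 to 0.92. Casp4, at 12.6, 3.75 and 21.1 CPM with PBS and at 11.9 and 12.9 CPM with IL-1β, lay inside its PBS range.

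In LK cells, none of the 6 genes tested was called by edgeR, where 9.34% of 12835 genes were called (6.77% higher and 2.57% lower). At an unadjusted p under 0.05 there were 3 (Nlrp3, Casp4 and Gsdmd), among 3176 of all genes. DESeq2 called Casp4 and limma-voom called 0. Without overlap between treatments, 3 of the 6 lay higher with IL-1β and 1 lay lower. Over all genes 19% lay higher in this way and 29.4% lower.

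Casp4 was closest to the threshold. It had 48, 122 and 122 counts with PBS and 113 and 92 with IL-1β, that is 3.74, 6.12 and 8.42 CPM against 13.8 and 13.7 CPM. The log2 fold change was 1.24 ± 0.33 (SE), with an adjusted p of 0.0511 in edgeR and of 0.00954 in DESeq2. Casp1 was at 13, 15.7 and 24.2 CPM against 24.8 and 26 CPM (0.60 ± 0.26, adjusted p = 0.21 in edgeR), and Gsdmd at 29, 34.2 and 37.1 CPM against 47.8 and 37.8 CPM (0.43 ± 0.17, adjusted p = 0.146 in edgeR). The 3 genes of cleavage and pore formation thus all lay higher, by amounts that missed the threshold. Without PBS replicate 3, the highest PBS library for each of them, all 3 were called (adjusted p = 0.000949 for Casp4, 0.00202 for Casp1 and 0.0262 for Gsdmd in edgeR), in a fit that called 2409 of 12216 genes against 1199 of 12835 with all libraries. Leaving out any of the other 4 LK libraries called 0 of the genes. Aim2, at 14.2, 21.5 and 20.6 CPM against 21.5 and 23 CPM, overlapped (log2 fold change 0.32, interval -0.17 to 0.80). So did Pycard, at 35.9, 26.1 and 37.7 CPM against 36.5 and 36.6 CPM (0.21, interval -0.20 to 0.63).

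Nlrp3 was the gene that lay lower in LK cells. It had 15, 14 and 21 counts with PBS and 2 and 0 with IL-1β, where the mean PBS level would have given 9.07 and 7.44 counts. From the summed counts of 50 and 2, the level was 7.89-fold lower with IL-1β, with a 95% interval of 2.07 to 67 for counting error only. The fitted log2 fold change was -2.89 ± 1.05 (SE) at an adjusted p of 0.128 in edgeR, with a range of 0.0778 to 0.472 over the alternatives. The macrophage list summed to 87.5 to 136 CPM with PBS and to 54 and 61.5 CPM with IL-1β, but its members diverged. Csf1r was called lower, at 35.5 to 56.1 CPM against 4.39 and 10.3 CPM, while Itgam, Cd14, Mrc1 and Fcgr1 had higher means with IL-1β and no call. Mertk had at most 0.156 CPM with PBS and was at 0 in both IL-1β libraries. The part of these cells in the Nlrp3 counts was not tested. The ligands were near the floor and were not tested. Il1b had 7, 6 and 7 counts with PBS and 3 and 4 with IL-1β, Il18 had 2, 9 and 1 counts against 0 and 0, and Il1a had 3 counts in 1 PBS library.

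**Figure D4:**
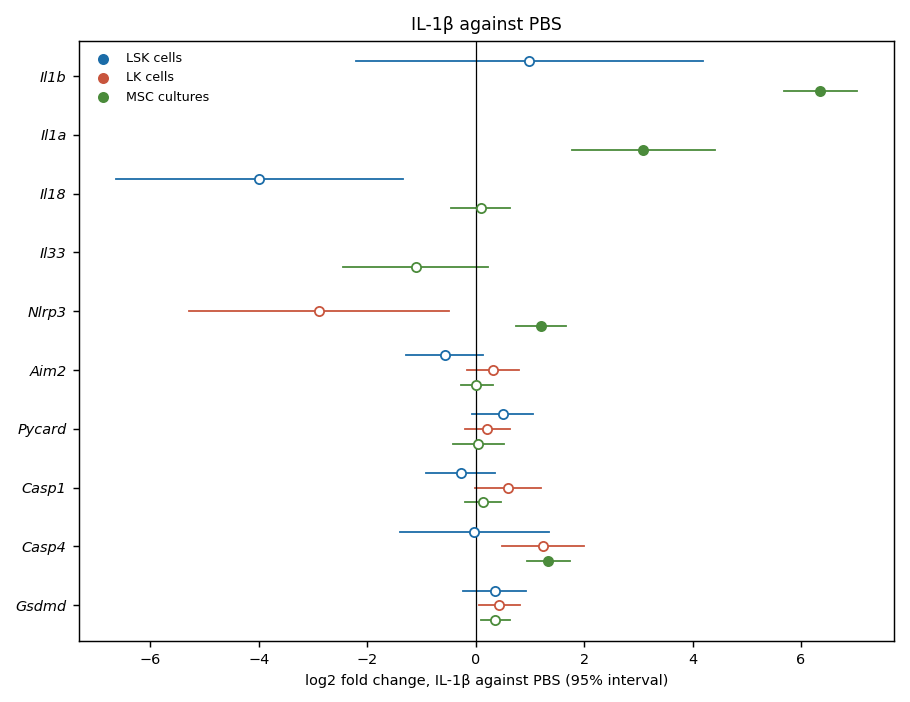
Log2 fold change of each gene with IL-1β against PBS in LSK cells, LK cells and MSC cultures, with 95% intervals from edgeR, filled where called and missing where too few counts were present. The 4 called values are all in MSC cultures (Il1b 6.36, Il1a 3.09, Casp4 1.33 and Nlrp3 1.21), and in LK cells the intervals of Casp4 and Gsdmd lie above 0 and that of Nlrp3 below 0 without a call.

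While the 10 genes gave no call in LK cells, receptors of the family did. Of 7 receptors tested there, 4 rose and none fell, beside 6.77% of all genes called higher, with a median log2 fold change of 0.96 beside -0.03 over all genes. They were Il1r2, a decoy receptor that binds IL-1 without signalling, Il18rap and Il1rap, the accessory chains of the IL-18 and IL-1 receptors, and Il1rl2, the IL-36 receptor. Il1r2 had 2, 2 and 1 counts with PBS and 44 and 11 with IL-1β, a ratio of 34.8 with a 95% counting interval of 14.1 to 112 (edgeR, adjusted p = 0.00779). Il18rap rose by 2.21 ± 0.29, Il1rl2 by 1.50 ± 0.23 and Il1rap by 0.96 ± 0.20 (log2 fold change ± SE). The IL-36γ gene (listed as Il1f9) rose from at most 2 counts to 9 counts in each IL-1β library (edgeR, adjusted p = 0.0329). Of 26 other sensors and regulators, 3 rose and none fell, beside 6.77% of all genes called higher: Nlrp12 (3.25 ± 0.50), Naip2 (1.26 ± 0.20) and Pstpip1 (1.01 ± 0.24). Naip2, Pstpip1, Tlr4 and Irak3 were also called higher in the MSC cultures. Of 16 priming and signalling genes, Tlr4 (2.56 ± 0.34), Irak3 (1.19 ± 0.21) and Myd88 (0.50 ± 0.11) rose and Rela fell by 0.60. Tmed10, 1 of 6 release factors tested, rose (0.75 ± 0.12). The neutrophil serine proteases Prtn3, Elane and Ctsg, which can cleave IL-1 family precursors outside the inflammasome, rose in 3 of 3 cases (2.08 ± 0.31, 1.80 ± 0.37 and 2.13 ± 0.35). They are also neutrophil granule markers, and that list of 12 summed to 4331 to 9233 CPM with PBS and to 16912 and 19677 CPM with IL-1β. Other lists moved in LK cells too. The mast cell and basophil list went from 249 to 353 CPM up to a range of 655 to 1188 CPM, with Fcer1a, Cpa3 and Ms4a2 called higher of 5 genes tested. The erythroid list went from 3241 to 4096 CPM down to a range of 2129 to 2297 CPM, with Gata1, Car1, Klf1 and Epor called lower of 8. The part of these changes in the receptor and sensor values was not tested.

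The same lists gave few calls in LSK cells. None of 7 receptors, 27 sensors and regulators, 6 release factors or 16 priming genes was called by edgeR, beside 0.632% of all genes. At so low a share, lists of this size can hold no call. Prtn3 (2.34 ± 0.38) and Elane (3.32 ± 0.39) rose among the 3 proteases, while the granule list went from 1990 to 2802 CPM up to 9041 and 10512 CPM. The uncalled receptors of LSK cells diverged. Il1rl1 lay higher and was nearest the threshold, at a log2 fold change of 1.61 ± 0.35 (SE; adjusted p = 0.0775 in edgeR). Il18rap lay lower at -1.33 ± 0.37 and Il18r1 at -2.08 ± 0.57, both with an adjusted p of 0.121 in edgeR. Il1r1 also lay lower, at -1.20 ± 0.34 (adjusted p = 0.131 in edgeR). The remaining receptors tested had an adjusted p of 0.568 or more in edgeR. The difference of response between LSK and LK cells was called for Il18rap alone among the listed pathway genes (-3.58 ± 0.51, edgeR adjusted p = 0.0479).

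To see how the genes divide between the stem cell and progenitor fractions, LSK and LK cells were compared in a joint fit of the 10 sorted libraries. With PBS, 4 of the 8 genes tested were higher in LSK cells and none was lower, beside 19.4% higher and 12.4% lower over 13839 genes. Il18 was the most unequal, at 3.24, 2.54 and 4.06 CPM in LSK against 0.156, 0.452 and 0.069 CPM in LK cells (log2 fold change 3.87 ± 0.88, SE; edgeR, adjusted p = 0.00675). Casp1 was at 32.5, 33.1 and 42.2 CPM against 13, 15.7 and 24.2 CPM (1.15 ± 0.25, adjusted p = 0.0042 in edgeR). The fractions did not overlap for either gene.

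Gsdmd (0.69 ± 0.19, adjusted p = 0.0156 in edgeR) and Aim2 (0.67 ± 0.23, adjusted p = 0.041 in edgeR) were also higher in LSK cells without overlap, a gap in this direction that 22.5% of all genes showed. The call of Gsdmd was lost without LK PBS replicate 1 or 2 (adjusted p of 0.081 and 0.0509). The call of Aim2 was lost with DESeq2's size factors (0.0582), with no filter on low counts (0.138) and without any of 8 of the 10 libraries. Casp4 missed the threshold (1.17 ± 0.50, adjusted p = 0.0949 in edgeR). It was called without LSK PBS replicate 2, the LSK library with the lowest Casp4 level (1.60, adjusted p = 0.00412 in edgeR), and with no filter on low counts (1.06, adjusted p = 0.0175 in edgeR). Dntt, the main gene of the lymphoid list, was at 89.4 to 321 CPM in LSK and 3.04 to 5.73 CPM in LK cells, and the part of lymphoid-primed cells in these values was not tested. Il1b, Nlrp3 and Pycard overlapped between the fractions, at log2 fold changes of 0.81, -0.21 and 0.25 with intervals of -1.53 to 3.15, -2.43 to 2.02 and -0.16 to 0.66.

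With IL-1β, none of the 8 genes was called between LSK and LK cells by edgeR, beside 4.4% of all genes, and DESeq2 and limma-voom also called 0. All genes split into 295 higher and 314 lower, or 394 and 247 with upper-quartile factors. At an unadjusted p under 0.05 there was 1, Gsdmd (0.57 ± 0.23, SE; adjusted p = 0.185 in edgeR), among 3015 of all genes. Casp1 was at 27 and 32.4 CPM in LSK and at 24.8 and 26 CPM in LK cells, a log2 fold change of 0.23 with an interval from -0.43 to 0.90. Il18 was at or under the floor in both fractions, so no fold is given. Casp1, Gsdmd and Pycard lay higher and Casp4 and Aim2 lower in LSK cells without overlap, where 57% of all genes lay apart (26.6% higher and 30.4% lower). This contrast rests on 2 libraries a side, and its intervals do not show that the fractions became alike.

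**Figure D5:**
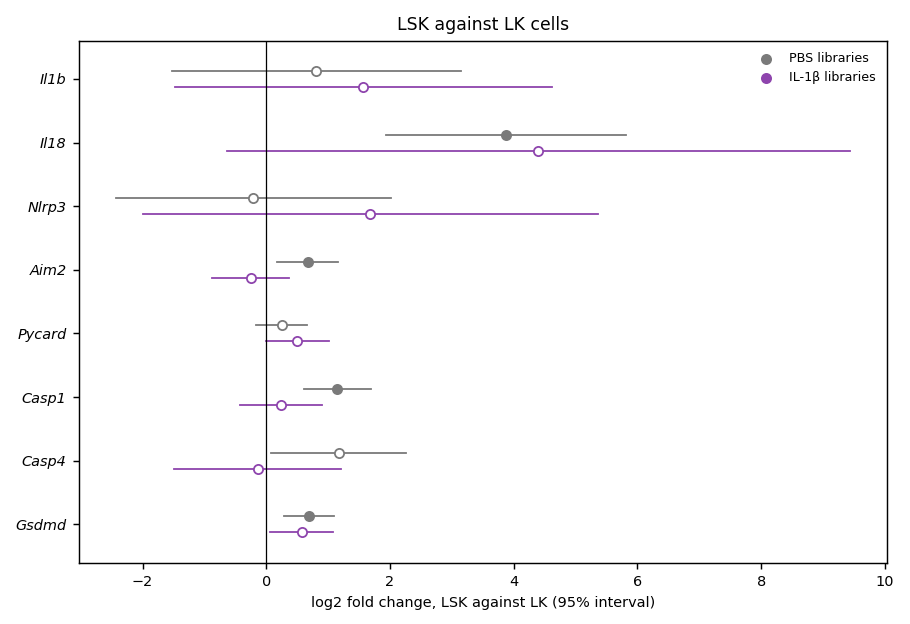
Log2 fold change of LSK against LK cells with PBS and with IL-1β for the 8 genes tested, with 95% intervals from edgeR, filled where called. Il18, Casp1, Gsdmd and Aim2 are called with PBS (3.87, 1.15, 0.69 and 0.67), and no gene is called with IL-1β.

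The test of the difference in response between the fractions called none of the 8 genes in edgeR, beside 0.0289% of all genes (0.00723% higher and 0.0217% lower), and none in DESeq2 or limma-voom. With the replicate block it also called 0 of the 8, and 24 genes in all in place of 4. Unadjusted, 2 genes were under 0.05, among 1967 of all genes. Aim2 had a response lower by 0.92 ± 0.37 in LSK than in LK cells (log2, SE; adjusted p = 0.3 in edgeR). Casp1 likewise had a difference of -0.92 ± 0.39 (adjusted p = 0.326 in edgeR). Casp4 was at -1.31 with an interval from -3.05 to 0.43. The median over all genes was -0.12. Values for Il1b, Il18 and Nlrp3 rest on counts near 0 and are left out.

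Over the 14 libraries, the genes whose log2 CPM followed the ligands and Nlrp3 most closely were found by Pearson's r among 15393 genes. For Il1b these were Nos2 (r = 0.963), Ifi213 (0.947) and Arg2 (0.944). Nos2 encodes the inducible nitric oxide synthase and Arg2 the mitochondrial arginase. For Il18 they were Sgms1 (0.971), Zfp579 (0.965) and Iqsec2 (0.963), and for Nlrp3 they were 6430548M08Rik (0.976), Ptpro (0.975) and Ids (0.972). The libraries differ in cell type, genotype, table and depth, which all genes share, so these values are a description across 14 points that fall into separate groups.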

How the data were processed

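The authors trimmed reads with fastp 0.20.0, aligned them to GRCm38 with HISAT2 2.0.1 and deposited counts of read pairs per gene from featureCounts 2.0.2, reverse-stranded and not normalized. The methods name GenomicAlignments and mm10 instead. Libraries were made after rRNA depletion. Symbols came from GENCODE M21, which named 55227 of 55487 identifiers. All 14 count columns were used. A further IL-1β-treated MSC library named in a header was not analysed here.

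The tests used edgeR 4.0.16 under R 4.3.3, with filterByExpr, TMM factors, a robust glmQLFit and a two-sided glmQLFTest, adjusted by Benjamini-Hochberg over all genes tested, with treatment as the only factor in each population. LSK and LK cells were compared in 1 joint fit of 4 groups. The labels do not tie LSK to LK libraries of 1 number. Deviations of same-numbered LSK and LK libraries correlated with r of 0.19, 0.115 and 0.446 in the 3 PBS pairs. Crossing PBS numbers 1 and 2 gave 0.11 and 0.152, and crossings with number 3 ran from -0.357 to -0.199. These values do not settle whether the PBS libraries are paired. With 2 IL-1β libraries per fraction the deviations mirror each other. Their r of 0.0838 for like and -0.0838 for unlike numbers cannot decide it. A call needed an adjusted p below 0.05 together with a log2 fold change beyond 0.5 either way. Its SE is the log2 fold change divided by the square root of F. The typical biological coefficient of variation was 0.377 in LSK, 0.183 in LK, 0.149 in MSC and 0.299 in the joint fit. Alternatives were DESeq2 1.42.0, voom in limma 3.58.1, other size factors, other filters, no fold threshold, a replicate block, a joint fit and leaving out each library.

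Totals ranged from 4393233 to 30871055. The floor was 3 counts per library, and intervals on counts are exact binomial at 95%. Reads carry no molecular identifiers, so floors and intervals cover counting error only. Gene and list members were chosen with earlier results of these data known. Besides the 10 genes, the rule names up to 4 called members of each list with the largest change, members called in more than 1 comparison, and the 3 genes nearest to Il1b, Il18 and Nlrp3. Nlrc4, P2rx7, Lyz2, Cd68, Col1a1 and Prrx1 in MSC cultures were named after their values were seen. So were Il18r1, Il1rl1, Il1r1, Csf1r and Itgax in LSK cells, and Il1bos. Of the listed names, Il36a, Il36b, Il36g, Mb21d1 and Irgb10 were matched to their older or newer symbols and Il36rn was not matched. Gsdmdc1 and Dfna5, older names of Gsdmd and Gsdme, were not counted again.

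The tests were tried on simulated counts with 200 genes changed by a log2 fold of 2. In the LSK design 69.9% of 196 changed genes tested were recovered with 5 false calls among 12724 genes, in LK 84.3% of 198 with 20 among 12419, in MSC 92.5% of 199 with 31 among 12979, and in the interaction 50.5% of 200 with 4 among 13455. Promoter sequences are RefSeq's. Figures were drawn with matplotlib 3.10.9.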

Additional observations from a re-analysis of the deposited data

Results flagged for a closer look

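Nlrp3 moved in opposite directions in LK cells and MSC cultures. Its log2 fold change was -2.89 in LK and 1.21 in MSC, with every IL-1β library below the PBS libraries in LK cells (2 and 0 counts against 14 to 21) and above them in MSC. Of all genes tested, 29.4% lay lower in this way in LK cells and 33.3% lay higher in MSC. The difference between the Nlrp3 responses was not tested, since the cultures and the sorted cells were fitted apart, and only the MSC value passed the threshold.

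Casp1 lay lower in LSK cells and higher in LK cells and MSC cultures, at log2 fold changes of -0.28, 0.60 and 0.13. The treatments did not overlap in any of the 3 on the common CPM scale. The gaps were narrow, from 32.4 to 32.5 CPM in LSK, 24.2 to 24.8 CPM in LK and 95 to 96.2 CPM in MSC. Of all genes tested, 39.5% in LSK, 48.5% in LK and 59.6% in MSC lay apart in either direction. None of these values passed the threshold. The LSK and LK responses differed by -0.92 in the interaction test (edgeR, adjusted p = 0.326), and the LSK and MSC responses were not compared by a test. No group had the 4 libraries needed to judge a single library as an outlier.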

How the results depend on the processing

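Of 722 values of the 10 genes under an alternative, 665 kept their direction and side of the threshold, 18 lost a call, 13 gained one and 26 changed sign. In LSK cells the count of the 10 genes called went from 0 to 1 with DESeq2 (Il18). In LK cells it went from 0 to 1 with DESeq2 or its size factors (Casp4), to 2 with no filter (Casp1 and Casp4), to 3 with the replicate block (Casp1, Casp4 and Gsdmd), and ran from 0 to 3 with 1 library left out. In MSC it was 4 and ran from 1 to 4 with 1 library left out, falling to 1 (Il1b) without either IL-1β culture. For LSK against LK cells with PBS it was 4 and ran from 2 to 5. With IL-1β, and for the difference of response, it was 0 throughout. The cause of these changes was not tested, apart from the fewer libraries in the left-out fits.

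Signs that changed were of values near 0 or of few counts. In LSK cells Il1b ran from -0.66 (without IL-1β replicate 1) to 1.70 with 1 library left out, and Casp4 at 0.00 with DESeq2, 0.21 with limma-voom, 0.01 with DESeq2's size factors, 0.82 with the replicate block, and -0.44 to 0.60 with 1 library left out. In MSC, upper-quartile factors gave Aim2 -0.05 and Pycard -0.01, and leaving out 1 library gave ranges of -0.06 to 0.20 for Il18, -0.02 to 0.31 for Casp1, -0.07 to 0.08 for Aim2 and -0.18 to 0.38 for Pycard. For LSK against LK cells with PBS, Il1b was at -0.15 with limma-voom and Nlrp3 ran from -1.35 to 0.29. With IL-1β, without 1 library, Il1b ran from -0.14 to 2.25 and Nlrp3 from -3.88 to 5.49. For the difference of response Il18 was at -0.86 with DESeq2 and -2.26 with limma-voom, and without 1 library Il18 ran from -3.79 to 1.30, Il1b from -0.86 to 1.44, Nlrp3 from -3.57 to 5.80 and Gsdmd from -0.31 to 0.11.

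The number of calls over all genes moved too. In LSK cells 83 genes were called, and 872 with DESeq2, 21 with limma-voom, 869 with no filter, 702 with the replicate block, 1228 in the joint fit and 3 to 480 with 1 library left out (480 without PBS replicate 2). In LK cells 1199 were called, and 1844 with no filter, 2331 with the replicate block, 489 in the joint fit and 66 to 2409 with 1 left out. In MSC 1515 were called, and 2354 with no filter and 38 to 3819 with 1 left out. Upper-quartile factors turned the MSC split from 945 higher and 570 lower to 817 and 831, and the split of LSK against LK cells with IL-1β from 295 and 314 to 394 and 247. In that contrast 609 were called, and 1322 with DESeq2, 182 with limma-voom, 1410 with no filter and 89 to 1867 with 1 left out. With PBS 4394 were called and 2741 to 4607 with 1 left out. The difference of response had 4 calls, and 324 with DESeq2, 1 with limma-voom, 398 with no filter, 24 with the replicate block and 0 to 336 with 1 left out.

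The replicate block changed no other count of the 10 genes. Between treatments, libraries of 1 number deviated with r of 0.116 and -0.0327 in LSK and -0.091 and 0.0218 in LK cells. Those numbers were not taken as pairs. Between LSK and LK cells the correlations did not settle whether libraries of 1 number are pairs. With the block the comparison under PBS called the same 4 of the 10 genes, and 4480 genes in all in place of 4394. No paired analysis was possible in MSC cultures because number 2 is the only one that both treatments carry. Without TMM factors 37 of the 60 group means stayed above 1 FPKM, and 24 means moved by more than 1 SD. Depth limits the ligands and Nlrp3 in sorted cells, where 3 counts were 0.151 to 0.665 CPM.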

Other observations

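Il1bos, the antisense transcript at Il1b, was counted in the sorted cells although it was at 0 in the cultures. It had 11, 76 and 7 counts in LSK cells with PBS and 6 and 1 with IL-1β, and 16, 36 and 15 counts in LK cells with PBS and 3 and 5 with IL-1β. In the LSK PBS library without an Il1b count it was at 5.37 CPM.

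Il1r1, the signalling receptor for IL-1α and IL-1β, had a mean of 51.5 ± 7.91 CPM in LSK and 5.38 ± 1.41 CPM in LK cells with PBS (SD, n = 3), and 7.61 ± 2.4 CPM in MSC cultures with PBS (SD, n = 2). It was higher in LSK than in LK cells with PBS (log2 fold change 3.39 ± 0.31, SE; edgeR, adjusted p = 2.46e-05) and with IL-1β (1.48 ± 0.36, adjusted p = 0.0425 in edgeR). With PBS, Il18r1, the IL-18 receptor chain that binds the ligand, was also higher in LSK cells (4.09 ± 0.55), as were Il18rap (3.00 ± 0.33) and Sigirr, an inhibitory receptor (1.53 ± 0.27), and Il1rl1, the IL-33 receptor, was lower (fell by 2.13). Of the 8 receptors tested between the fractions with PBS, 4 were called higher and 1 lower in LSK cells, beside 19.4% and 12.4% of all genes. Il18r1 was at 0 counts in all 4 MSC libraries.

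Of 28 other sensors and regulators, 18 were called higher in LSK than in LK cells with PBS and 1 lower, beside the same 19.4% and 12.4%. They included Casp12 (3.47 ± 0.37), Nlrc3 (2.99 ± 0.31) and Gm12250 (2.65 ± 0.46). Nlrp1b, with 16 to 54 counts in LSK and 0 or 1 in LK libraries, was called higher, and Nlrp12, with 0 or 1 count in LSK and 5 to 16 in LK libraries, was the gene called lower. No fold is given for these 2, whose lower group is under the floor. With IL-1β, 1 of the 28 was called, Casp12 (3.02 ± 0.51), beside 2.13% of all genes called higher and 2.27% lower. At so low a share, lists of this size can hold few calls or none. Of 16 priming genes 8 were called higher with PBS, led by Rel (1.99 ± 0.24), and none with IL-1β. Of 6 release factors 3 were higher with PBS, Capn2 (1.98 ± 0.35), Gsdme (1.71 ± 0.39) and Ninj1 (0.80 ± 0.20), and Elane and Prtn3 were lower (fell by 3.08 and 1.18). With IL-1β, Capn2 was called higher as well (1.85 ± 0.45), alone among the 6, and no protease was called. The values are log2 fold changes with their SE from edgeR.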
